A study of Mus musculus with 12 samples.

Results

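The 10 genes Trem2, Tyrobp, Apoe, Lpl, Cst7, Spp1, Gpnmb, Itgax, Clec7a and Lgals3, known from disease-associated microglia and from phagocytes that take up lipid, were followed in the mouse eye after sodium iodate (NaIO3) injury and intermittent fasting (IF). They were chosen by name, with earlier results of these data known. A row among the 21930 genes of the count table was found for 9 of the 10, while Clec7a was not analysed here. RNA-seq was available for 12 libraries in 4 groups of 3, AL+PBS and AL+NaIO3 on a free (ad libitum, AL) diet, and IF+PBS and IF+NaIO3 on a fasting diet. All mice were wild-type C57BL/6J males, aged 8 weeks when the diets began. AL mice ate freely for 12 weeks, and IF mice alternated 24 h without food and 24 h of feeding over the same period and until tissue was taken. Each mouse then received 1 intraperitoneal injection, either PBS or NaIO3 at 25 mg/kg, and tissue was taken 7 days later. The comparisons asked how the genes differed after NaIO3 on each diet, and whether IF altered that difference. NaIO3 given systemically is an acute oxidant injury of the RPE and is used as a model of age-related macular degeneration, not as the disease itself.

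TREM2 is a surface receptor of microglia and macrophages that binds lipids, lipoproteins and cell debris, and it signals through the adaptor TYROBP (DAP12). In damaged nervous tissue, microglia that engage this receptor lower their resting-state genes and induce a set for phagocytosis and lipid handling, of which the genes followed here are commonly cited members. In the healthy eye, microglia lie in the inner retina and resident macrophages in the choroid, and after injury of the RPE such cells gather next to the photoreceptors.

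The libraries held between 26364665 and 43046950 counts, and TMM scaling factors were between 0.9346 and 1.1231. The labels name the tissue as RPE with choroid and sclera and the protocol names eye cups. Markers of the RPE were present, with a summed level of the 10 markers between 658.9 and 2377 CPM (counts scaled to the size of the library), and markers of photoreceptors (10 genes, summed between 20410 and 67400 CPM) were also detected in every library, so RNA of the neural retina was present. Replicate 3 of AL+NaIO3 stood apart. Its 8 pigment cell markers summed to 2111 CPM, against 138.0 to 350.2 CPM in the other 11 libraries, and its photoreceptor markers were the lowest of the 12 libraries at 20410 CPM. AL+NaIO3 replicate 2 had the next lowest photoreceptor sum at 39370 CPM, below the 52370 to 67400 CPM of the remaining 10 libraries, and replicate 1 the highest. Fold changes that moved by over 1.5 times when AL+NaIO3 replicate 3 was left out are given without it as well. Whether replicates were separate animals is stated in the methods only as a sample size, and p-values measure the spread between these libraries.

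**Figure D1:**
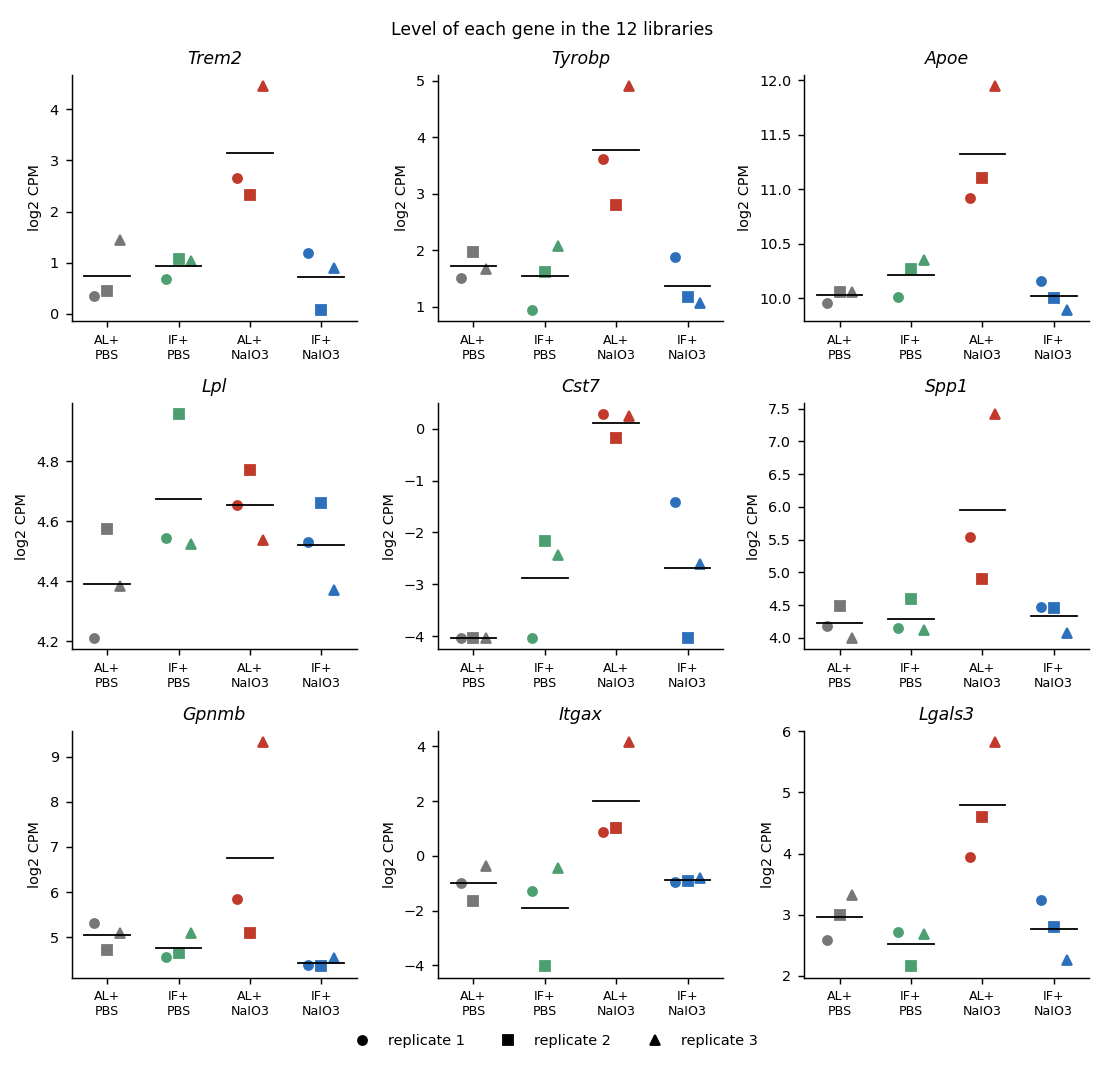
Level of each of the 9 measured genes in the 12 libraries as log2 CPM (prior count 2, so that 0 counts lie near -4), with a separate scale in each panel. Points are libraries, shaped by replicate number, and black bars are group means (n = 3). For 8 genes the AL+NaIO3 points lie above those of IF+NaIO3 without overlap, the exception being Lpl, and replicate 3 of AL+NaIO3 is the highest point for 7 genes.

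The receptor and its adaptor were at low levels in 3 of the 4 groups and were high in AL+NaIO3. Trem2 (ENSMUSG00000023992, chr17:48346401-48354147, all gene coordinates as in the files and on GRCm38) was at 1.22, 1.30 and 2.65 CPM in AL+PBS replicates 1, 2 and 3 and at 6.26, 4.97 and 21.9 CPM in AL+NaIO3. Its level was 1.54, 2.05 and 1.98 CPM in IF+PBS and 2.21, 0.99 and 1.79 CPM in IF+NaIO3. Every AL+NaIO3 library was thus above every library of the other groups, with replicate 3 far above the other two. The log2 fold change of Trem2 was 2.69 ± 0.64 (SE, n = 3 against 3, adjusted p = 0.259) for AL+NaIO3 against AL+PBS, and -2.74 ± 0.627 (adjusted p = 0.208) for IF+NaIO3 against AL+NaIO3. Without AL+NaIO3 replicate 3 these values were 1.71 (adjusted p = 0.140) and -1.76 (adjusted p = 0.130). Tyrobp (ENSMUSG00000030579, chr7:30413760-30417585), which carries the signal of TREM2 and of other receptors into the cell, was at 2.79, 3.83 and 3.11 CPM in AL+PBS and at 12.2, 6.89 and 30.0 CPM in AL+NaIO3. On the IF diet it was at 1.86, 3.00 and 4.15 CPM after PBS and at 3.63, 2.18 and 2.03 CPM after NaIO3. As for Trem2, no AL+NaIO3 library overlapped another group. Its log2 fold changes were 2.34 ± 0.514 (adjusted p = 0.242) and -2.65 ± 0.547 (adjusted p = 0.185) in the same pair of comparisons, and 1.56 (adjusted p = 0.0827) and -1.88 (adjusted p = 0.078) without that replicate. In such bulk libraries, a larger number of expressing cells and more RNA per cell cannot be told apart.

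Among the lipid genes, Apoe followed the receptor while Lpl did not. Apoe (ENSMUSG00000002985, chr7:19696109-19699188) encodes apolipoprotein E, a lipid carrier that Müller cells, RPE and phagocytes all make. It was at 995.9, 1068 and 1068 CPM in AL+PBS and at 1941, 2198 and 3954 CPM in AL+NaIO3. On the IF diet, 1032, 1236 and 1306 CPM were measured after PBS and 1141, 1028 and 949.4 CPM after NaIO3. The lowest AL+NaIO3 library was above the highest of the other 9. The mean of Apoe was 1044 CPM (SD 41.64) in AL+PBS and 2698 CPM (SD 1096) in AL+NaIO3. The log2 fold change was 1.38 ± 0.291 (adjusted p = 0.224) for AL+NaIO3 against AL+PBS and -1.38 ± 0.299 (adjusted p = 0.191) for IF+NaIO3 against AL+NaIO3. Lpl (ENSMUSG00000015568, chr8:68880491-68907448), the lipase that frees fatty acids from lipoproteins, was at 18.5, 23.8 and 20.8 CPM in AL+PBS, and at 25.1, 27.3 and 23.2 CPM in AL+NaIO3. Its 6 IF libraries were between 20.63 and 31.02 CPM. The groups overlapped throughout, with log2 fold changes of 0.27 ± 0.154 (adjusted p = 0.593) and -0.14 ± 0.149 (adjusted p = 0.726). Lpl was also the only gene whose AL+NaIO3 replicate 3 was below the mean of replicates 1 and 2, at 0.884 times that mean.

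Cst7 was the gene closest to absent outside AL+NaIO3. It encodes cystatin F, an inhibitor of lysosomal cathepsins made by leukocytes and by activated microglia (ENSMUSG00000068129, chr2:150570415-150578944). No Cst7 read was counted in any AL+PBS library, which allows up to 0.0962, 0.0709 and 0.0983 CPM in replicates 1, 2 and 3 (3 counts each, counting error only). In AL+NaIO3 36, 23 and 42 reads were counted, or 1.16, 0.817 and 1.13 CPM. The 3 libraries were alike, and replicate 3 did not stand out. With 101 counts in AL+NaIO3 against a floor of 3 counts over the AL+PBS group, Cst7 was at least 36.3-fold higher. It passed the filter on low counts only through AL+NaIO3, and was not tested where that group was absent, so its p-values in the comparisons with AL+NaIO3 are not read as support. IF+PBS held 0, 5 and 4 reads and IF+NaIO3 held 11, 0 and 3, so that 1 library of each IF group had no read, as in AL+PBS, and the IF means lay between those of the AL groups. For IF+NaIO3 against AL+NaIO3 the log2 fold change was -2.86 ± 0.952 (adjusted p = 0.338). It was -4.33 without IF+NaIO3 replicate 1, which held 11 of the 14 reads, and -2.26 without replicate 2.

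Spp1 and Lgals3 encode secreted proteins of phagocytes. Spp1 (ENSMUSG00000029304, chr5:104435118-104441050) encodes osteopontin, a cytokine and matrix protein that neurons and bone cells also make. It was at 18.1, 22.3 and 15.9 CPM in AL+PBS and at 46.6, 29.7 and 171 CPM in AL+NaIO3. In IF+PBS it was at 17.6, 24.1 and 17.3 CPM, and in IF+NaIO3 at 22.2, 21.8 and 16.7 CPM. The AL+NaIO3 libraries were the highest 3 of the 12, and replicate 3 was several times the other two. The log2 fold change was 2.14 ± 0.597 (adjusted p = 0.296) against AL+PBS, and -2.04 ± 0.584 (adjusted p = 0.282) for IF+NaIO3 against AL+NaIO3. Without that replicate the values for Spp1 were 1.02 (adjusted p = 0.107) and -0.92 (adjusted p = 0.149). Lgals3 (ENSMUSG00000050335, chr14:47367751-47386160) encodes galectin-3, a sugar-binding protein that is secreted and also marks damaged lysosomes. It was at 5.94, 7.91 and 9.99 CPM in AL+PBS and at 15.3, 24.3 and 56.5 CPM in AL+NaIO3. The IF libraries held 6.53, 4.39 and 6.35 CPM after PBS and 9.35, 6.91 and 4.75 CPM after NaIO3. All 3 AL+NaIO3 libraries again lay above the other 9. Its log2 fold changes were 2.02 ± 0.466 (adjusted p = 0.249) and -2.20 ± 0.483 (adjusted p = 0.198), or 1.32 (adjusted p = 0.0943) and -1.5 (adjusted p = 0.0988) without AL+NaIO3 replicate 3.

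Gpnmb and Itgax, a pair of transmembrane proteins, depended most on a single library. Gpnmb (ENSMUSG00000029816, chr6:49036546-49070929) encodes a glycoprotein of lysosomes in phagocytes and of melanosomes in pigment cells. It was at 39.5, 26.2 and 34.1 CPM in AL+PBS, but at 57.3, 33.9 and 641.8 CPM in AL+NaIO3. IF+PBS held 23.4, 25.2 and 34.0 CPM and IF+NaIO3 held 20.9, 20.3 and 23.3 CPM. AL+NaIO3 replicate 2 lay within the range of AL+PBS, whereas each IF+NaIO3 library was below every library of AL+PBS, AL+NaIO3 and IF+PBS. The log2 fold change of Gpnmb was 2.89 ± 1.02 (adjusted p = 0.390) for AL+NaIO3 against AL+PBS, and 0.45 without replicate 3 (adjusted p = 0.489). The pigment cell markers were high in the same library, and their part in the Gpnmb value was not tested. Itgax (ENSMUSG00000030789, chr7:128129547-128150657) encodes CD11c, an integrin chain of dendritic cells, macrophages and activated microglia. It had 14, 11 and 22 reads in AL+PBS and 55, 56 and 662 reads in AL+NaIO3, that is 0.449, 0.260 and 0.721 CPM against 1.77, 1.99 and 17.8 CPM. There were 11, 0 and 22 reads in IF+PBS and 16, 17 and 15 in IF+NaIO3. Replicates 1 and 2 of AL+NaIO3 were close to each other and above all 9 libraries of the other groups. The log2 fold change was 3.93 ± 1.01 (adjusted p = 0.277), and 1.99 without replicate 3 (adjusted p = 0.205).

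For 7 of the 9 genes a promoter was matched in the RefSeq promoters of GRCm38.p6, and 3 motifs were searched on both strands of the 250 bases before the transcription start. GGAAGT, the core of many sites of ETS-family factors such as PU.1, occurred in 19.7% of 32851 promoters. TGACTCA, the AP-1 motif, occurred in 4.46%, and CACGTG, an E-box, in 6.02%. The 7 genes had 10 such promoters, 3 of them for Apoe and 2 for Spp1, while the shares are over single promoters. Among these genes, GGAAGT was found upstream of Cst7, Itgax and 1 of the 2 starts of Spp1 and TGACTCA upstream of Itgax, and none held CACGTG. The promoters of the 3 genes with a match are printed because these genes were high together in AL+NaIO3, and that of Trem2 because it was high in the same libraries and held none of the motifs. Capitals mark the matches, with the reverse complement of the motif where it lies on the other strand, and each sequence runs 5′ to 3′ on the plus strand of GRCm38.p6 and ends at the base before the start.
Cst7, chr2:150570165-150570414: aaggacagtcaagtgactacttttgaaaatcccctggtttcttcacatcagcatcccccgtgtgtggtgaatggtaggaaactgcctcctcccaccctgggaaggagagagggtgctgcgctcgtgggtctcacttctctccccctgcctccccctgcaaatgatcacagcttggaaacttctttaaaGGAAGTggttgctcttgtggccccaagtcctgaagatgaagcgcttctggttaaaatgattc
Spp1, chr5:104434861-104435110: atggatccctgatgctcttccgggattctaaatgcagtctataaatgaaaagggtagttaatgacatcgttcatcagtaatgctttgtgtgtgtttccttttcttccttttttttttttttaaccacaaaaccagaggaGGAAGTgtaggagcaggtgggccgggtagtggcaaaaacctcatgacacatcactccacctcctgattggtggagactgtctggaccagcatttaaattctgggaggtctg
Itgax, chr7:128129300-128129549: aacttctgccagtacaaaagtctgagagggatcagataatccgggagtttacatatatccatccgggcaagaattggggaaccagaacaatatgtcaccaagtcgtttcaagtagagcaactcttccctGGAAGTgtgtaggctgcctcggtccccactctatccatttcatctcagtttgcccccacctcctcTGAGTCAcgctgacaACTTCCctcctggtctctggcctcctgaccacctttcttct
Trem2, chr17:48346151-48346400: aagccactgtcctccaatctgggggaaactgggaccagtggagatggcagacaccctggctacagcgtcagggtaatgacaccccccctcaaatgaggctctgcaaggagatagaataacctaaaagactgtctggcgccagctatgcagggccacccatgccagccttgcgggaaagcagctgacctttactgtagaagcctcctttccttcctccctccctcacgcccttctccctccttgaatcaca
The Cst7 match begins 62 bases and the Spp1 match 111 bases before the start. A match of letters is a description and not a bound site.

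Over the 9 genes, AL+NaIO3 differed from AL+PBS in 1 direction. All 9 had a positive fitted fold change, with a median log2 value of 2.34, against 0.01 over all 15612 genes tested (2.34 also with Cst7 at its lower bound). The groups did not overlap, with AL+NaIO3 higher, for 7 of the 9 genes, against 9.80% of the genes tested, and the unadjusted p was under 0.05 for 8, against 7.51%. None of the 9 was called by edgeR, which required both a 1.5-fold difference and an adjusted p below 0.05, where 0.0769% of genes were called. These counts include Cst7, which had to be higher to enter the test, and are 6 and 7 of 8 without it. With the 12 libraries fitted together, Trem2, Tyrobp, Apoe and Lgals3 of the 8 other genes passed the same thresholds (adjusted p = 0.0367, 0.0367, 0.0159 and 0.0377), where 0.952% of genes were called higher. DESeq2 called the same 4, where it called 2.36% of genes higher, but it gave Itgax no adjusted p and so could not call it. Without AL+NaIO3 replicate 3 the median was 1.32, the groups did not overlap for 8 genes (15.0% of the genes tested), all but Gpnmb and with Cst7 among them, and edgeR called only Apoe (log2 fold change 0.99, adjusted p = 0.0192), where 0.394% of genes were called higher.

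**Figure D2:**
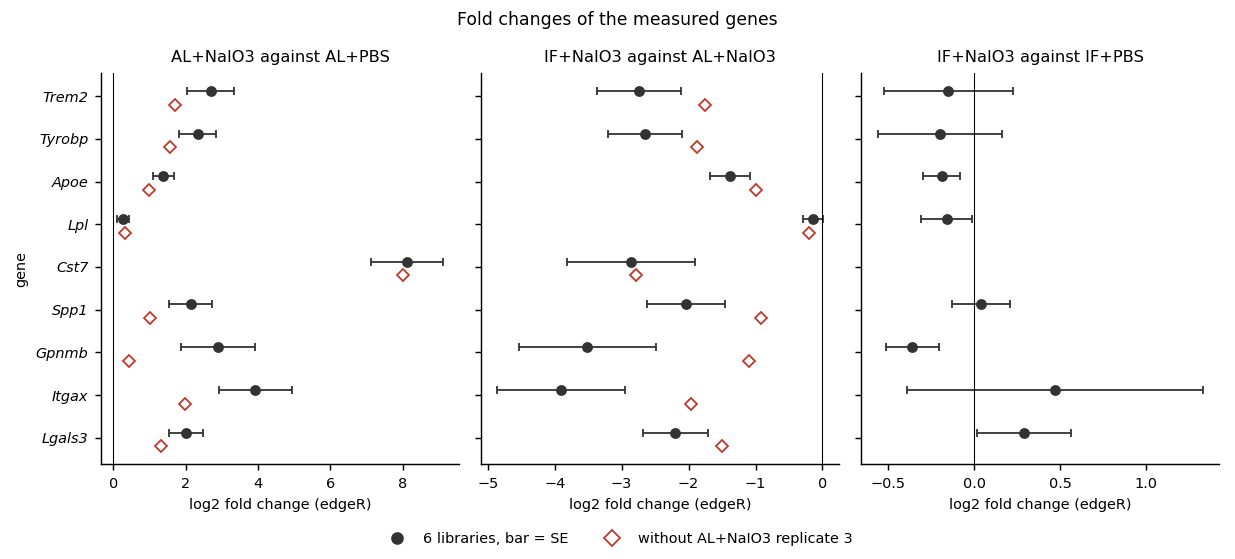
Log2 fold changes of the 9 genes, 8 of them in the panel for IF+NaIO3 against IF+PBS, where Cst7 was not tested. Filled points are fits on 6 libraries with bars of 1 SE, and open diamonds are fits without AL+NaIO3 replicate 3. The x axes differ: values reach 8.12 (Cst7, fitted against a group at 0) in the left panel and lie between -0.36 and 0.47 in the right panel.

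All 9 genes had lower fitted levels in IF+NaIO3 than in AL+NaIO3, Lpl by the least. The fold changes had a median of -2.65 (-0.01 over 15648 genes tested). The IF+NaIO3 libraries were below every AL+NaIO3 library for 8 of the 9, Lpl being the exception, against 10.2% of genes, and 8 had an unadjusted p under 0.05, against 8.22% (both counts with Cst7, 7 of 8 without it). Again none was called by edgeR on the 6 libraries, where 0.0383% of genes were called. Trem2, Tyrobp, Apoe and Lgals3 passed with the 12 libraries fitted together (adjusted p = 0.0323, 0.0203, 0.0145 and 0.023), where 1.06% of genes were called lower, and DESeq2 called these 4 as well, where it called 2.72% of genes lower. Itgax again had no adjusted p in DESeq2. Without AL+NaIO3 replicate 3 the median was -1.5, 8 genes still did not overlap (13.3% of genes), and Apoe was called at a log2 fold change of -1.0 (adjusted p = 0.0354), where 0.445% of genes were called lower. The log2 fold changes of Gpnmb and Itgax went from -3.51 and -3.90 to -1.09 and -1.96. Both comparisons use the AL+NaIO3 libraries, so their values are not independent of each other.

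After PBS, the differences between the diets in these genes were of both signs. The log2 fold changes of IF+PBS against AL+PBS for the 8 genes tested were between -0.46 (Lgals3) and 0.29 (Lpl), with 4 positive and 4 negative and a median of -0.02. The groups overlapped for each of these 8 genes, and none was called by edgeR or by DESeq2. None had an unadjusted p under 0.05, whereas 17.1% of all genes did, 0% were called by edgeR and 1.23% by DESeq2. Cst7 was not tested, and DESeq2 gave Itgax no adjusted p, so it could not call that gene. The lowest adjusted p was 0.338, for Apoe (log2 fold change 0.19 ± 0.0975). Within the IF diet, NaIO3 against PBS gave log2 fold changes between -0.36 and 0.47, a median of -0.16, and again no call by edgeR (0% of genes) or by DESeq2 (0.523%). DESeq2 gave no adjusted p for Trem2, Tyrobp, Itgax and Lgals3 here, so it could not call them, and Cst7 was not tested. Gpnmb alone of the 8 had an unadjusted p under 0.05, being lower in IF+NaIO3 (log2 fold change -0.36 ± 0.153, adjusted p = 0.313). This was no larger a share than the 15.2% of all genes. Trem2 (-0.15 ± 0.377), Tyrobp (-0.20 ± 0.363) and Apoe (-0.19 ± 0.11) were each within 2 SE of no difference.

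The interaction term, the effect of NaIO3 on the IF diet minus that on the AL diet, was negative for all 9 genes. Its log2 values were -2.83 ± 0.756 for Trem2, -2.53 ± 0.659 for Tyrobp, -1.56 ± 0.313 for Apoe, -1.72 ± 0.572 for Lgals3 and -0.42 ± 0.216 for Lpl. The median was -2.53, against -0.02 over 15970 genes. An unadjusted p under 0.05 was found for 8 of the 9, all but Lpl, or 7 of 8 without Cst7, against 6.88% of genes with a negative term, and no gene of the 9 was called by edgeR (0.0313% of genes were), the lowest adjusted p being 0.113 for Apoe. DESeq2 called Trem2, Tyrobp and Apoe, where it called 0.964% of genes with a negative term, and gave Itgax no adjusted p. Leaving out AL+NaIO3 replicate 3 moved the median to -1.19 and the terms of Trem2, Tyrobp and Lgals3 to -1.87, -1.76 and -1.04. That of Apoe was then also -1.19, with an adjusted p of 0.0114, where 0.143% of genes were called with a negative term. Leaving out AL+NaIO3 replicate 1 instead gave -1.76 for Apoe with an adjusted p of 0.0178 (1.26% of genes).

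The 3 AL+NaIO3 libraries differed from each other by unequal amounts across the genes. Replicate 3 exceeded the mean of replicates 1 and 2 by 14.1 times for Gpnmb, 9.47 times for Itgax, 4.49 times for Spp1, 3.90 times for Trem2, 3.14 times for Tyrobp, 2.86 times for Lgals3 and 1.91 times for Apoe. It was 1.14 times their mean for Cst7. Among all genes tested, 4.33% exceeded 3-fold in this ratio, and 5 of the 9 genes did. Against the AL+PBS mean, the mean of replicates 1 and 2 alone was 3.94 times for Itgax, 3.26 times for Trem2, 2.95 times for Tyrobp, 2.49 times for Lgals3, 2.03 times for Spp1, 1.98 times for Apoe, 1.37 times for Gpnmb and 1.25 times for Lpl. Replicate 3 on the same AL+PBS scale was 37.3 times for Itgax, 19.3 times for Gpnmb and 12.7 times for Trem2, so Itgax was the highest of the 8 genes in both.

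Levels were compared between genes on the deposited FPKM values, which are divided by gene length. In AL+PBS, Apoe was highest at 612.9 ± 21.1 FPKM (SD, n = 3), followed by Spp1 (10.6 ± 1.60), Gpnmb (7.59 ± 1.52), Lgals3 (5.20 ± 1.21), Tyrobp (4.64 ± 0.716), Lpl (4.21 ± 0.498), Trem2 (0.961 ± 0.588), Itgax (0.0947 ± 0.048) and Cst7 at 0. Neighbours in this order overlapped from Gpnmb down to Lpl, although Gpnmb lay above Tyrobp and Lpl without overlap. In AL+NaIO3 the order of mean FPKM was Apoe (1775 ± 949.9), Gpnmb (62.2 ± 89.7), Spp1 (52.0 ± 52.5), Tyrobp (25.2 ± 20.3), Lgals3 (21.7 ± 16.1), Trem2 (6.37 ± 5.65), Lpl (5.30 ± 0.544), Itgax (1.63 ± 2.18) and Cst7 (0.894 ± 0.172). From Gpnmb down to Lpl each gene's range overlapped that of its neighbour, as did those of Itgax and Cst7. Several places in this order rested on replicate 3. Gpnmb was at 165.8 FPKM there, but the mean of replicates 1 and 2 was 10.5 FPKM, below the same mean of Spp1 (21.7), Tyrobp (13.7) and Lgals3 (12.6). By that mean Trem2 (3.12) was also below Lpl (5.28), and Itgax (0.374) below Cst7 (0.811). Tyrobp was above Trem2 in each of the 12 libraries on this scale.

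Markers of macrophages and microglia moved with the genes. The 13 markers, among them Aif1, Cd68, Csf1r, Ptprc, the C1q chains and Ctss, summed to 71.38 to 80.48 CPM in AL+PBS, 64.01 to 85.05 in IF+PBS, 183.7 to 641.7 in AL+NaIO3 and 65.16 to 87.67 in IF+NaIO3, and none was at 0 throughout a group. All 13 had positive fold changes in AL+NaIO3 against AL+PBS, with a median of 2.45, and all 13 negative ones in IF+NaIO3 against AL+NaIO3, with a median of -2.48. Without AL+NaIO3 replicate 3 the medians were 1.78 and -1.73. No marker was called on 6 libraries in either comparison, 13 and 12 had an unadjusted p under 0.05 (7.51% and 8.22% of all genes), and 8 and 9 were called with the 12 libraries together (0.952% and 1.06% of genes). Any marker that passed the filter only through AL+NaIO3 is in these counts. In IF+PBS against AL+PBS and in IF+NaIO3 against IF+PBS 12 of the 13 were tested. Ctss, a lysosomal cathepsin and the most abundant of the 13 markers by CPM, was at 13.1, 15.1 and 15.3 CPM in AL+PBS and 59.4, 38.2 and 218 CPM in AL+NaIO3.

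Set against these markers, the genes of AL+NaIO3 lay on both sides of 0. In each library the mean log2 CPM of the 13 markers was subtracted from the log2 CPM of the gene, and the AL+PBS mean was set to 0. On this scale Trem2 was at 0.18 ± 0.34 (SD, n = 3) in AL+NaIO3 and Tyrobp at -0.16 ± 0.34, so both differed from AL+PBS about as much as the marker mean did. Apoe was at -0.92 ± 0.34, and Lpl at -1.95 ± 0.92, each below 0 in all 3 libraries. Spp1 was at -0.49 ± 0.51 and Lgals3 at -0.40 ± 0.46. Itgax (0.79 ± 1.07) and Gpnmb (-0.51 ± 1.46) varied more between the libraries than they differed from 0. Cst7 was at 1.94 ± 0.69 and above 0 in all 3, although with no reads in AL+PBS this value depends on the prior count of 2. In IF+PBS and IF+NaIO3 Cst7 was at 1.25 ± 0.75 and 1.29 ± 1.09, but 1 library of each of these groups had no Cst7 read, and its value on this scale comes from the marker mean alone. No test was made on these differences.

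**Figure D3:**
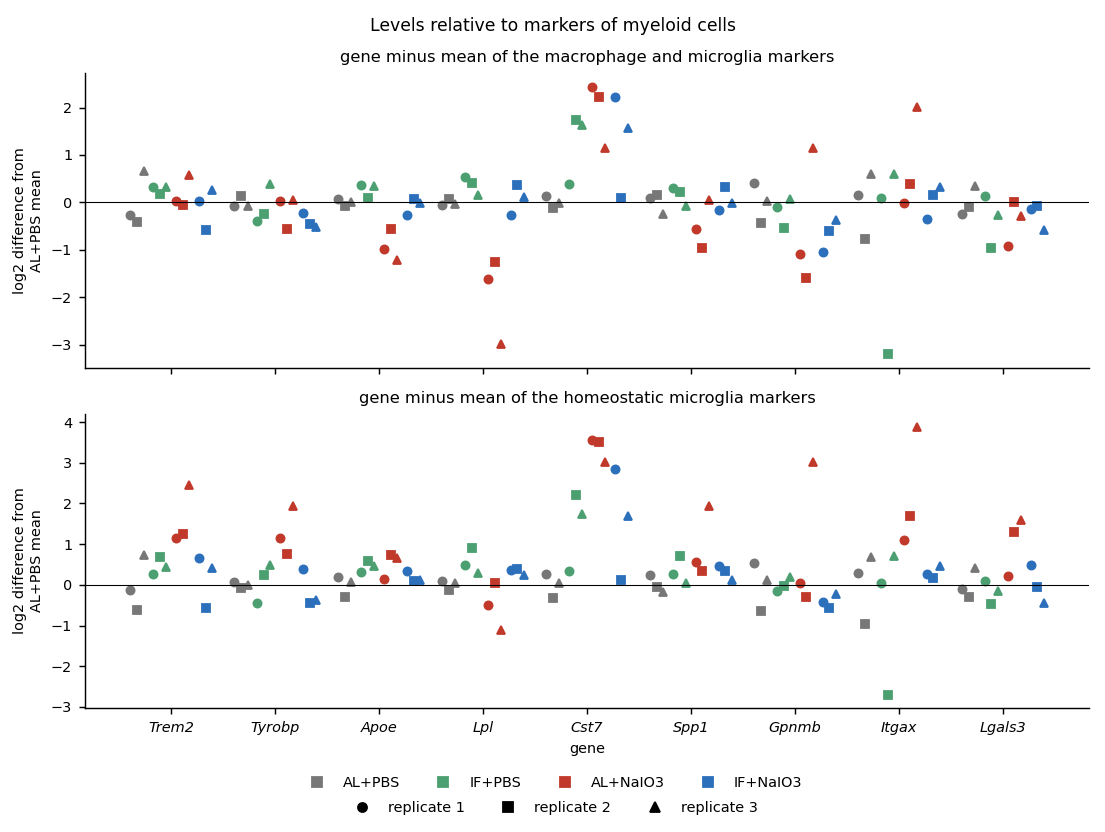
Log2 CPM of each gene minus the mean log2 CPM of 13 macrophage and microglia markers (upper panel) or 11 homeostatic microglia markers (lower panel), with the AL+PBS mean set to 0. Points are the 12 libraries, coloured by group and shaped by replicate number. Trem2 and Tyrobp of AL+NaIO3 lie between -0.55 and 0.57 in the upper panel and between 0.75 and 2.45 in the lower one.

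Homeostatic microglia markers, genes of the resting state such as P2ry12 and Tmem119, were also mostly higher in AL+NaIO3. Of 11 tested, 9 had positive fold changes in AL+NaIO3 against AL+PBS (6 with an unadjusted p under 0.05, against 7.51% of genes, and none called on 6 libraries), with a median of 1.04, or 0.51 without AL+NaIO3 replicate 3. In IF+NaIO3 against AL+NaIO3 the median was -1.16, or -0.75 without that replicate. Relative to the mean of these 11, Trem2 was at 1.62 ± 0.72 in AL+NaIO3, Tyrobp at 1.28 ± 0.60, Lgals3 at 1.04 ± 0.72 and Apoe at 0.51 ± 0.33, and all 3 libraries were above 0 for each of them. In IF+NaIO3 the same quantities were 0.17 ± 0.64, -0.14 ± 0.46, 0.00 ± 0.46 and 0.19 ± 0.14, and in IF+PBS they were 0.46 ± 0.21, 0.10 ± 0.49, -0.18 ± 0.28 and 0.46 ± 0.14. On this scale the Apoe values of AL+NaIO3 (0.14 to 0.74) overlapped those of each other group. The Lgals3 values of AL+NaIO3 (0.22 to 1.59) overlapped those of AL+PBS (-0.29 to 0.41) and IF+NaIO3 (-0.44 to 0.48). Lpl in AL+NaIO3 was at -0.52 ± 0.58, and Gpnmb at 0.93 ± 1.82 with 1 library below 0.

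Other cell types of the eye cup and of tissue around it were followed by their markers. Monocyte markers (6 genes) summed to 1.444 to 3.636 CPM in AL+PBS, 6.75 to 21.52 in AL+NaIO3 and 1.516 to 3.773 in IF+NaIO3, and the choroidal and border macrophage markers (6 genes) to 15.87 to 19.85, 22.37 to 30.97 and 18.33 to 27.07 CPM. Dendritic cell markers (7 genes), which bear on Itgax, summed to 12.48 to 13.74 CPM in AL+PBS and 12.45 to 24.96 CPM in AL+NaIO3, with 1 marker at 0 throughout AL+PBS. Most of these sums was Zbtb46, at 9.34, 9.28 and 8.65 CPM in AL+PBS and 7.7, 14.7 and 12.6 CPM in AL+NaIO3. Only 5 of the 7 were tested in this comparison. Pigment cell markers, which bear on Gpnmb, were high only in AL+NaIO3 replicate 3: Tyrp1 was at 25.2, 21.5 and 646 CPM in AL+NaIO3, and the median log2 fold change of the 8 markers against AL+PBS was 1.40, or -0.66 without that library. For Müller cells and astrocytes, which bear on Apoe, the 8 markers summed to 4305 to 4808 CPM in AL+PBS and 4062 to 5182 CPM in AL+NaIO3. Their median log2 fold change was 0.24, or -0.04 without replicate 3, with 6 positive and 2 negative. Glul, the most abundant, was at 2520, 2840 and 2520 CPM in AL+PBS and 2120, 2090 and 2130 CPM in AL+NaIO3. The most changed was Gfap, an astrocyte filament gene whose protein the authors used to label Müller cells. It was at 12.3, 23.0 and 15.8 CPM in AL+PBS and 112, 97.1 and 308 CPM in AL+NaIO3. The 10 RPE markers, from cells that also make Apoe, summed to 1591 to 1779 CPM in AL+PBS, 1866 to 2377 in IF+PBS, 658.9 to 884.7 in AL+NaIO3 and 771.4 to 1678 in IF+NaIO3. Against AL+PBS, 9 of the 10 were lower in AL+NaIO3, with a median log2 fold change of -0.99 and 1 called on 6 libraries (0.0769% of genes). Lymphocyte markers (9 genes) summed to 1.181 to 2.195 CPM in AL+PBS, 1.767 to 1.92 in IF+PBS, 3.755 to 11.77 in AL+NaIO3 and 0.689 to 1.35 in IF+NaIO3, with 3 at 0 throughout AL+PBS and 5 throughout IF+NaIO3. Neutrophil markers (9 genes) summed to 14.02 to 18.02 CPM in AL+PBS, 15.84 to 20.51 in IF+PBS, 19.43 to 22.27 in AL+NaIO3 and 16.77 to 17.98 in IF+NaIO3. Most of these sums was Mmp9, at 14.4, 15.3 and 11.9 CPM in AL+PBS and 16.9, 13.7 and 14.6 CPM in AL+NaIO3. Only 3 of the 9 were tested in AL+NaIO3 against AL+PBS. For AL+NaIO3 against AL+PBS the median of the photoreceptor markers was -0.55 on the log2 scale, or -0.26 without replicate 3, and no marker had an unadjusted p under 0.05. Skeletal muscle markers (7 genes) were at 118.0 to 256.0 CPM in AL+PBS and 18.5 to 90.49 in IF+PBS, with a median log2 fold change of -1.66 and an unadjusted p under 0.05 for all 7 (17.1% of genes in either direction), though none was called by edgeR. In AL+NaIO3 and IF+NaIO3 they were at 75.46 to 244.3 and 50.72 to 211.2 CPM. Markers of ganglion cells, adipocytes, and bone and cartilage held no gene with an unadjusted p under 0.05 in either comparison with AL+NaIO3. The part of each cell type in the levels of Trem2, Apoe and the others was not tested.

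**Figure D4:**
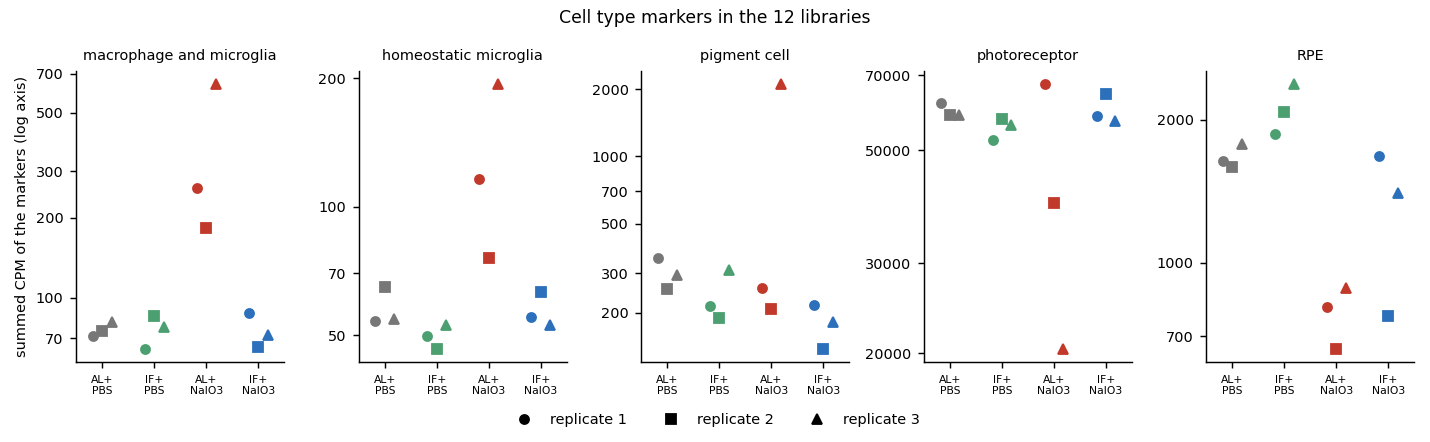
Summed CPM of 5 marker lists in the 12 libraries, on log axes with a separate range in each panel. Points are libraries, shaped by replicate number. The macrophage and microglia sums of AL+NaIO3 (183.7 to 641.7 CPM) lie above all others, and the pigment cell sum of AL+NaIO3 replicate 3 (2111 CPM) lies apart from the other 11 libraries.

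Genes that act with the receptor were given by a list of TREM2, TYROBP and CLEC7A signalling, with kinases, adaptors, phosphatases and the sheddases ADAM10 and ADAM17. All 15 tested in AL+NaIO3 against AL+PBS had positive fold changes, 8 with an unadjusted p under 0.05 (7.51% of all genes), and none was called on 6 libraries, while 2 were called with 12 (0.952% of genes). The median was 1.45, or 0.95 without AL+NaIO3 replicate 3. In IF+NaIO3 against AL+NaIO3, 15 of 16 were negative with a median of -1.26 (-0.67 without that replicate), 8 had an unadjusted p under 0.05 (8.22% of genes) and 1 was called with the 12 libraries (1.06%). Any gene that passed the filter only through AL+NaIO3 is in these counts, and no count was made without such genes. In IF+PBS against AL+PBS 13 of the list were tested, and 14 in IF+NaIO3 against IF+PBS. Ms4a6d, a membrane protein of macrophages, was at 0.257, 0.189 and 0 CPM in AL+PBS and 0.995, 1.67 and 9.21 CPM in AL+NaIO3 (log2 fold change 4.69, adjusted p = 0.261, and 3.11 without replicate 3). Vav1, an exchange factor downstream of SYK, was higher by 3.57 on the log2 scale (adjusted p = 0.242 on 6 libraries and 0.0315 on 12) and at -2.78 in IF+NaIO3 against AL+NaIO3 (adjusted p = 0.253 and 0.0613). Lcp2, the adaptor SLP-76, was higher by 2.79 (adjusted p = 0.296), and the kinase gene Btk was at -2.84 in IF+NaIO3 against AL+NaIO3 (adjusted p = 0.379), with at most 2.12 CPM in any library. Without that replicate Vav1 was at 2.38 and -1.59, Lcp2 at 1.81 and Btk at -2.03.

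A list of other genes cited for disease-associated microglia held 27 genes with a row, of which 26 were tested. In AL+NaIO3 against AL+PBS 24 had positive fold changes, 16 had an unadjusted p under 0.05 (7.51% of all genes), none was called on 6 libraries and 4 on 12 (0.952%), with a median of 1.04 (0.47 without AL+NaIO3 replicate 3). IF+NaIO3 against AL+NaIO3 gave 23 negative values, 18 with an unadjusted p under 0.05 (8.22%) and 6 called on 12 libraries (1.06%), with a median of -1.19 (-0.58). Any gene that passed the filter only through AL+NaIO3, as Ccl3 did, is in these counts, and no count was made without such genes. In IF+PBS against AL+PBS 25 of the list were tested, and 24 in IF+NaIO3 against IF+PBS. Ccl3, a chemokine, had 67 counts in AL+NaIO3 and 0 in AL+PBS and IF+NaIO3, which made it at least 24.1-fold and 23.2-fold higher (adjusted p = 0.183 and 0.178). It passed the filter only through AL+NaIO3, so its p-values, like those of Cst7, are not read as support. Lyz2, the lysozyme of myeloid cells, was at 49.3, 34.2 and 578 CPM in AL+NaIO3 and at 12.2, 12.5 and 18.1 CPM in AL+PBS, with log2 fold changes of 3.96 (adjusted p = 0.284) and -4.69 (adjusted p = 0.208). Cd52, a surface glycoprotein of leukocytes, had values of 3.05 (adjusted p = 0.120) and -2.63 (adjusted p = 0.112), and Atp6v0d2, a proton pump subunit, of 2.77 (adjusted p = 0.360) and -5.41 (adjusted p = 0.247). Fitted on 12 libraries, the adjusted p was 0.0107 and 0.0172 for Cd52 and 0.0413 and 0.0217 for Lyz2. For Atp6v0d2 it was 0.219 and 0.0518. Without AL+NaIO3 replicate 3 Lyz2 was at 1.55 and -2.29, and Atp6v0d2 at 1.06 and -3.72.

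Genes of lipid uptake, storage and efflux were mixed. Of 25 tested, 17 were positive and 8 negative in AL+NaIO3 against AL+PBS, with a median of 0.27 (0.02 without AL+NaIO3 replicate 3). An unadjusted p under 0.05 was found for 2 in each direction, against 7.51% of all genes higher and 2.74% lower. None was called on 6 libraries, and with 12 libraries 2 were called higher and 1 lower, against 0.952% and 0.157% of genes. In IF+NaIO3 against AL+NaIO3 8 were positive and 17 negative, with a median of -0.33, or -0.05 without that replicate. Abca1, which exports cholesterol to apolipoproteins, was at 39.8, 48.0 and 51.8 CPM in AL+PBS and 107, 125 and 170 CPM in AL+NaIO3, without overlap (log2 fold change 1.53, adjusted p = 0.0562 on 6 libraries and 0.000818 on 12). In IF+NaIO3 it was at 51.5, 59.0 and 56.4 CPM (log2 fold change -1.28 against AL+NaIO3, adjusted p = 0.0849 on 6 libraries and 0.00412 on 12). Apoc1, an apolipoprotein whose gene lies close to Apoe, had log2 fold changes of 2.40 (adjusted p = 0.0989 on 6 libraries and 0.0356 on 12) and -2.21 (adjusted p = 0.104 and 0.044). The scavenger receptor Msr1 had values of 2.04 (adjusted p = 0.555) and -1.5 (adjusted p = 0.606) that turned to -0.44 and 0.96 without AL+NaIO3 replicate 3, and the fatty acid receptor Cd36 went from -1.41 to -0.41 in IF+NaIO3 against AL+NaIO3.

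The 9 genes varied together, Lpl the least. Over the 12 libraries, Pearson's r of log2 CPM had a median of 0.822 over the 36 pairs, 0.863 over the 28 pairs without Lpl and 0.174 over the 8 pairs with it. Without AL+NaIO3 replicate 3 the median was 0.607 over all pairs, 0.726 over those without Lpl and 0.322 over those with it. The closest pair was Tyrobp with Apoe (r = 0.954), and the lowest was Lpl with Itgax (r = -0.219). These points share 4 groups, so r largely follows the group means, and it is given as a description. Among genes with a mean of at least 1 CPM that are not in the set, the mean standardized profile of the 9 was most like those of Vim (r = 0.99), Cd68 (0.987), Crym (0.984), Laptm5 (0.982) and Mpeg1 (0.982). By single gene, for 8 of the 9, the most alike were C1qb for Trem2 (0.975), Sparc for Tyrobp (0.98), Cd68 for Apoe (0.991), Clic1 for Cst7 (0.95), Carhsp1 for Spp1 (0.981), Smo for Gpnmb (0.981, or 0.81 without AL+NaIO3 replicate 3), Cela1 for Itgax (0.959) and Irf1 for Lgals3 (0.979).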

How the data were processed

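RNA-seq of 12 libraries was analysed, and each library took its group and replicate number from its label. The authors isolated RNA from eye cups, selected poly-A RNA, mapped reads and counted them per gene, and deposited them as raw whole-number counts. HISAT2, StringTie, DESeq2 and edgeR are named in the submitters' processing notes, without versions, and the counting tool's use of strand is not given in the sources used here. Coordinates of 21199 of 21201 matched genes overlapped RefSeq GRCm38.p6 and 3560 of 21689 overlapped GRCm39, although the methods name GRCm39, so the files were read as GRCm38. The authors also deposited FPKM values, used here to compare levels between genes. A further table of the authors' own comparison, with fold changes and p-values, was not used, and 0 per-sample columns were left unassigned.

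Counts were scaled by TMM and filtered by filterByExpr, and edgeR 4.0.16 (R 4.3.3) was run as a quasi-likelihood test on the 6 libraries of each comparison, with Benjamini-Hochberg adjustment over all genes tested. Calls needed a 1.5-fold difference and an adjusted p below 0.05, and the interaction, fitted on 12 libraries, only the adjusted p. CPM values use TMM factors over 12 libraries and log2 CPM a prior count of 2. Scripts were tested on simulated data. No pair of replicates was a duplicate.

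The genes and lists were chosen with earlier results of these data known. Genes named are all members, the 3 with the largest change per pathway list in AL+NaIO3 against AL+PBS and in IF+NaIO3 against AL+NaIO3, the most changed and most abundant of those cell type lists the text describes by single genes, and the profiles most alike. Some genes under this rule are not reported here. Alternatives were DESeq2 1.42.0, other scaling and filters, no fold threshold, 12 libraries together, a replicate block and leaving out each library.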

Additional observations from a re-analysis of the deposited data

Results flagged for a closer look

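For 3 of the 9 genes, every AL+NaIO3 library lay above the AL+PBS mean while every IF+NaIO3 library lay below the IF+PBS mean. The same held for 686 of the 15970 genes in the interaction fit (4.3%). On the IF diet alone the PBS and NaIO3 libraries overlapped for Apoe (log2 fold change -0.19, adjusted p = 0.416) and for Lpl (-0.16, adjusted p = 0.614). The difference between the diets in the NaIO3 effect, AL minus IF in mean log2 CPM, was 1.49 for Apoe, 0.42 for Lpl and 2.05 for Gpnmb. The interaction term of edgeR, coded as IF minus AL, did not pass for any of them, with adjusted p = 0.113 for Apoe, 0.448 for Lpl and 0.315 for Gpnmb. The interaction log2 value of Gpnmb was -3.22 with all libraries and -0.82 without AL+NaIO3 replicate 3.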

How the results depend on the processing

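Counts of called genes depended on the method, and the cause was not tested. For AL+NaIO3 against AL+PBS 12 genes were called, against 19 without a filter on low counts, 411 by DESeq2 and 177 with the 12 libraries fitted together, and 0 to 90 when a library was left out. For IF+NaIO3 against AL+NaIO3 6 genes were called, against 16, 478 and 190 in the same alternatives and 0 to 75 when a library was left out. In both, the highest number came without AL+NaIO3 replicate 3. For IF+PBS against AL+PBS 0 genes were called, with 2623 at an unadjusted p under 0.05, 189 by DESeq2 and 1 to 472 when a library was left out, the last without IF+PBS replicate 1. For IF+NaIO3 against IF+PBS 0 were called, with 2326 at an unadjusted p under 0.05, 2 without a filter, 80 by DESeq2 and 0 to 197 when a library was left out, the last again without IF+PBS replicate 1. For the interaction 5 genes were called, against 13 without a filter, 215 by DESeq2 and 3 to 366 when a library was left out, the last without AL+NaIO3 replicate 1. Where a group kept 2 libraries, the spread was pooled with the other group. Among the 9 genes followed, Cst7 included, DESeq2 called 5, 4 and 3 in AL+NaIO3 against AL+PBS, in IF+NaIO3 against AL+NaIO3 and in the interaction, the fit of 12 libraries called 5 and 4, and leaving out a library gave 0 to 1 in each of these, against 0. In these comparisons DESeq2 gave Itgax no adjusted p. Scaling by upper quartile, the filter of at least 10 counts and the fit without a fold threshold called none of the 9 where they were tested. That filter removed Cst7 throughout, and Itgax where IF+PBS libraries were included.

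Same-numbered samples did not deviate together (correlations between -0.101 and 0.138), so the numbers were not read as pairs. A fit with a replicate block called 28, 28, 5 and 8 genes in AL+NaIO3 against AL+PBS, IF+NaIO3 against AL+NaIO3, IF+PBS against AL+PBS and the interaction, and none of the 9 where they were tested.

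Of the alternatives for single genes, 516 kept their direction and side of the threshold, 25 passed it in addition and 14 changed sign. DESeq2 fits without an adjusted p are among the 516 as not called, although they could not be placed on either side. The 14 that changed sign were small differences with a library left out. In IF+PBS against AL+PBS the log2 fold change ranged from -0.079 to 0.56 for Trem2, -0.41 to 0.14 for Tyrobp, -0.10 to 0.21 for Spp1 and -1.39 to 0.14 for Itgax. In IF+NaIO3 against IF+PBS it ranged from -0.42 to 0.11 for Trem2, -0.51 to 0.11 for Tyrobp, -0.043 to 0.21 for Spp1 and -0.10 to 1.43 for Itgax. Depth limits Cst7 and Itgax, with 0 to 42 and 0 to 662 counts per library, more than the other genes.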
